A study of Mus musculus with 8 samples.

Results

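The IFITM genes Ifitm1, Ifitm2 and Ifitm3, the IFI27 family genes Ifi27 and Ifi27l2a, and Bst2, which encodes tetherin, code for small membrane proteins and are taken here as 6 of the 52636 genes in the count table. They were chosen by name and found by gene identifier, with no value threshold in the rule. Earlier results of these data were known at the choice, and the paper had already named Ifitm3 among the top upregulated transcripts in these cells. All 6 had enough counts to be tested, out of 17378 genes tested, although Ifi27l2a met the count filter only through its DKO libraries. The RNAseq libraries were made from S0 cells of E12.5 mouse fetal liver, from 4 WT and 4 DKO samples. S0 cells are the live cells left after sorting out non-erythroid lineages and all cells with surface CD71 or Ter119, and the labels call them erythroid precursors. DKO embryos carried knockout alleles of Vps13a and Vps13c, genes for proteins that transfer lipids between membranes, in the whole body. Their Vps13a allele had lost exon 6 through a Cre driven by the β-actin promoter, and their Vps13c genotype was Vps13c-/-. The DKO embryos came from Vps13a+/-/Vps13c-/- parents, a cross that yields no WT embryo, so WT samples were not littermates. Both groups were on the C57BL/6J background. The sources used here do not say whether a library was made from 1 liver or a pool, and p-values measure the spread between these samples only.

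Interferons are secreted signals that switch on a large set of antiviral genes through their receptors, the JAK kinases and STAT and IRF transcription factors. IFITM proteins sit in the membrane of the cell surface (IFITM1) or of endosomes and lysosomes (IFITM2 and IFITM3), where they hinder the fusion of viral with cellular membranes. Tetherin holds budding virus particles on the cell surface, and the IFI27 proteins are short hydrophobic proteins found at mitochondria and the nuclear membrane. Ifitm1, Ifitm2 and Ifitm3 are also known to be transcribed in embryonic and stem cells without infection.

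In the GRCm38 annotation of GENCODE all 6 genes are protein coding and fall at 3 places. Ifitm2 (ENSMUSG00000060591.9, chr7:140954837-140955987, minus strand), Ifitm1 (ENSMUSG00000025491.14, chr7:140967221-140969825, plus strand) and Ifitm3 (ENSMUSG00000025492.6, chr7:141009586-141010770, minus strand) lie in one cluster, with 11.2 kb between Ifitm2 and Ifitm1 and 39.8 kb between Ifitm1 and Ifitm3. Ifi27 (ENSMUSG00000064215.13, chr12:103434211-103440239, plus strand) and Ifi27l2a (ENSMUSG00000079017.3, chr12:103442167-103443680, minus strand) are 1.9 kb apart. Bst2 (ENSMUSG00000046718.8, chr8:71534255-71537456, minus strand) stands alone.

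Promoters were searched for the core of the interferon-stimulated response element, a site through which interferons switch on genes. The search is a description, made because these genes share an interferon response in the literature. RefSeq promoters of GRCm38.p6, 250 bases before to 50 after the start, were matched for 4 of the 6 genes (Ifitm1, Ifitm2, Ifitm3 and Bst2). The core was written GAAANNGAAA, or TTTCNNTTTC on the other strand, and 3.44% of 32851 promoters of this length hold it. The runs of 30 bases around the matches are given 5′ to 3′ on the strand of each gene, with matched bases in capitals.
Ifitm2, chr7:140955988-140956017, minus strand: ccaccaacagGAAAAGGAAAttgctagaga
Ifitm3, chr7:141010715-141010744, minus strand: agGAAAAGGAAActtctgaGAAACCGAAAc
Bst2, chr8:71537580-71537609, minus strand: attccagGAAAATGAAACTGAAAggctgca

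Ifitm2 held 1 match, at bases -46 to -37 from the RefSeq start. Ifitm3 held 2, at bases 3 to 12 and 20 to 29 of its first exon, and the upstream one had the same 10 letters as the match of Ifitm2. Bst2 held 2 overlapping matches, at -130 to -121 and -124 to -115. The core of the gamma-activated site, TTCNNNGAA, which is tied to the response to interferon gamma and reads the same on both strands, was in 8.3% of the promoters. It was found in Ifitm3 at 14 to 22, between its other matches and overlapping the second, and in Bst2 at -136 to -128, overlapping the first. Neither core was in the window of Ifitm1, which covers the RefSeq start alone of a gene with 3 annotated transcripts. These are matches of letters, and no binding was measured here.

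Libraries held 42114489 to 50886469 counts in WT and 36981439 to 42587815 in DKO. Vps13a was at 1825 to 2109 normalized counts in WT and at 607 to 1039 in DKO, without overlap. Vps13c was at 504 to 664 in WT and 518 to 1088 in DKO, with overlapping groups, so that its counts did not separate the genotypes. The erythroid regulators Klf1 (12312 ± 1724 in WT and 12795 ± 3376 in DKO) and Gata1 (8818 ± 1020 and 8235 ± 1820) were abundant in both groups (SD, n = 4 each). The libraries differed in other ways that move with genotype. The Y-linked gene Ddx3y was at 2911 to 3354 normalized counts in all WT libraries and at 2516 in DKO replicate 3, but at no more than 41.0 in DKO replicates 1, 2 and 4, where Xist was at 18029 to 27043. Mesenchyme markers were higher in DKO for 9 of 10 genes (all but Pdgfrb), with none of the 10 at 0 in every library, and their summed level was 2302 to 6096 in WT and 13356 to 48800 in DKO, highest in replicate 1. Neutrophil markers (3 of 7 tested lower) summed to 101569 to 132277 in WT and 5311 to 44779 in DKO. Most of this sum was Mpo alone, at 91281 to 120802 in WT and 3829 to 36256 in DKO. S100a8 and S100a9 had positive log2 fold changes (1.45 and 0.16) and were not called. Macrophage markers (2 of 9 lower) summed to 7517 to 11289 and 2264 to 4909, progenitor markers (5 of 10 lower) to 45245 to 56795 and 23603 to 30158, and hepatoblast markers (0 of 10 called) to 506175 to 703039 and 172185 to 614417. Most of the macrophage sum was Lyz2, Vcam1 and Csf1r. C1qa and C1qc had positive log2 fold changes (0.78 and 0.47) and were not called.

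Ifitm3, Ifi27, Ifi27l2a and Bst2 were higher in DKO S0 cells, and Ifitm2 was higher by a small amount. The call rule asked for a log2 fold change (DKO minus WT) beyond 1 or -1 and an edgeR adjusted p under 0.05. By this rule 4 of the 6 genes were called higher and 0 lower, where 6.19% of all genes tested were called higher and 2.43% lower. Without the fold threshold 5 of the 6 were higher, where 10.7% of genes passed upward and 10.8% downward. The log2 fold change was positive for all 6, with a median of 2.42, and the median over all genes tested was 0.03. For 5 of the 6 genes, all but Ifitm1, the lowest DKO library exceeded the highest WT library, as it did for 13.5% of all genes. Ifi27l2a is in each of these counts, although it met the count filter only through its DKO libraries, where it is high. In a bulk library, a gene's higher level per cell and a larger share of cells that transcribe it cannot be told apart.

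**Figure D1:**
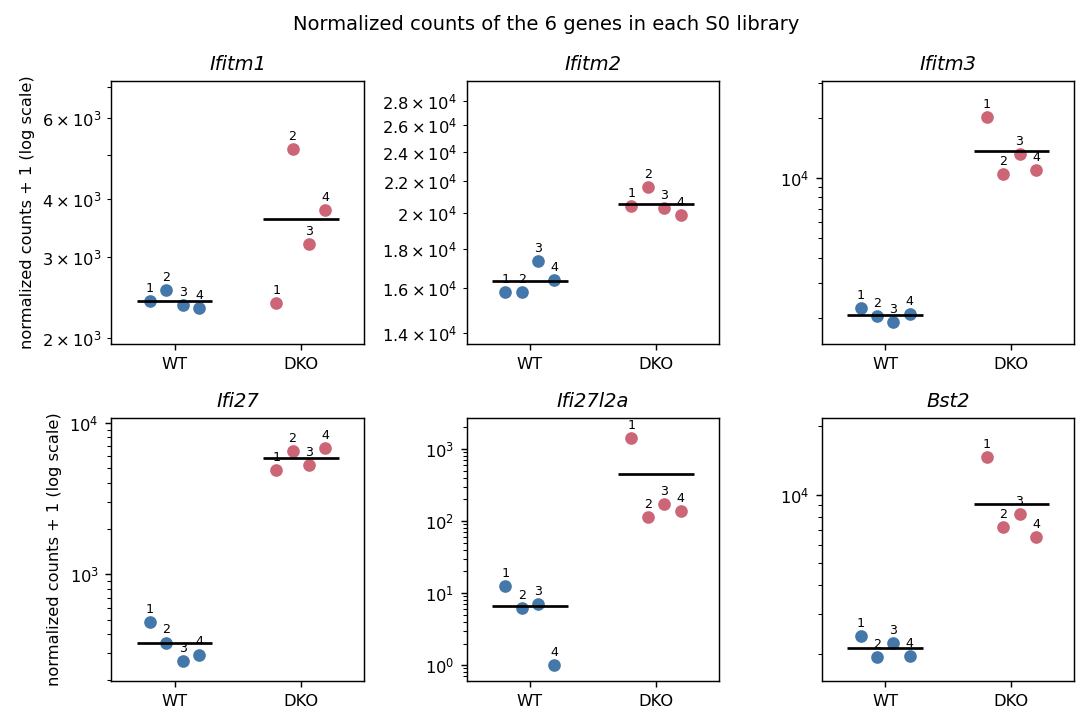
Normalized counts plus 1 (log scale, a different range in each panel) of the 6 genes in 4 WT and 4 DKO libraries. Points are libraries, numbers are replicates and lines are group means. The groups are separate in every panel but that of Ifitm1, where DKO replicate 1 lies among the WT libraries.

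Ifitm3, a restriction factor of endosomes, was at 2233, 2028, 1904 and 2088 normalized counts in WT replicates 1 to 4. In DKO replicates 1 to 4 it was at 20180.1, 10509, 13265 and 10983. The WT libraries lay close together, and the lowest DKO library was 4.71 times the highest WT library. The group means (± SD, n = 4) of 2063 ± 136 and 13734 ± 4463 had a ratio of 6.66. By edgeR the log2 fold change was 2.73 ± 0.20 (SE) and the adjusted p 0.000159. DKO replicate 1 stood above the other DKO libraries, and without it the ratio of means was 5.62.

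Ifitm2, like Ifitm3 a protein of endosomes, was at 15827, 15815, 17372 and 16390.3 normalized counts in WT and at 20426, 21640.2, 20308 and 19922 in DKO. The 4 libraries of each group were again close, at coefficients of variation of 4.48% in WT and 3.61% in DKO. The difference between the means (16351 ± 732 and 20574 ± 742, SD, n = 4 each) was small but larger than the spread between replicates, with a ratio of 1.26 and, by edgeR, a log2 fold change of 0.33 ± 0.07 (SE) at an adjusted p of 0.0104. Ifitm2 therefore passed the test below the fold threshold and was not called. With the presence of Y-linked transcripts as a covariate, a fit that sets DKO replicate 3 alone against WT, its log2 fold change was 0.31. Ifitm2 also shares 268 exon bases with the readthrough gene Gm45717 on the same strand, and 42.0% of the 75-base windows of its transcript occur in transcripts of other annotated genes, so that its count is uncertain. Normalized counts of Gm45717 itself were 174 ± 22.6 and 230 ± 42.1 (WT and DKO, SD, n = 4 each), and edgeR gave it an adjusted p of 0.261 at a log2 fold change of 0.40.

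Ifitm1, the IFITM protein of the cell surface, was at 2400.2, 2535, 2349.9 and 2314 normalized counts in WT. In DKO it was at 2375, 5144, 3200.0 and 3780.3. DKO replicate 1 lay inside the WT range, and the other 3 DKO libraries lay above it. The means were 2399.9 ± 97.0 and 3625 ± 1165 (SD, n = 4 each), and the edgeR log2 fold change of 0.59 ± 0.20 (SE) missed the threshold at an adjusted p of 0.0581. An exact two-sided permutation test of the 8 log2 values gave p = 0.0857. Leaving out DKO replicate 1 gave 0.76 on the log2 scale with an adjusted p of 0.00852 (edgeR). With all 8 libraries the adjusted p was also under 0.05 in 5 alternative analyses, between 0.0271 (DESeq2) and 0.0474 (edgeR with library sizes not scaled by TMM), and the log2 fold change stayed below the fold threshold in each.

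Levels of different genes can be set side by side only per length, as normalized counts per kb of exon. On this scale Ifitm2 was the highest of the 6 genes in WT, at 24964, above 99.6% of genes tested. Ifitm3 followed at 3043, Bst2 at 2356 and Ifitm1 at 2194. The ranges of Ifitm2 (24145 to 26523) and Ifitm3 (2809 to 3293) were separate from those below them, while Bst2 (2139.7 to 2657) and Ifitm1 (2115 to 2318) overlapped. Ifi27 was at 237 (181 to 328), above 61.1% of genes, and Ifi27l2a at 12.3 (0 to 24.9), above 16.6%. In DKO the order of the means was Ifitm2 (31411), Ifitm3 (20257), Bst2 (10094), Ifi27 (3992), Ifitm1 (3313) and Ifi27l2a (988). There the ranges overlapped between Ifitm3 (15500.2 to 29764) and Bst2 (7209 to 16116), between Ifi27 (3326 to 4635) and Ifitm1 (2171 to 4702), and between Ifitm1 and Ifi27l2a (246 to 3034). Ifitm2 (30416 to 33038) remained above Ifitm3 in every DKO library, although in replicate 1 by only 31185 to 29764.

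The makeup of the IFITM transcripts differed between the groups. Ifitm3 was 10.1% ± 0.90 of the summed level of the 3 genes per kb in WT (range 8.92% to 11.1%) and 36.3% ± 7.86 in DKO (range 29.1% to 47.2%, SD, n = 4 each). Ifitm2 went from 82.6% ± 1.21 to 57.5% ± 5.69, and Ifitm1 was at 7.27% ± 0.47 and 6.16% ± 2.28. The exact two-sided permutation p was 0.0286 for Ifitm3 and for Ifitm2, the smallest that 4 against 4 libraries can give, and 0.4 for Ifitm1. The summed level was 30200.4 ± 912 in WT and 54981 ± 5645 in DKO, a ratio of 1.82 (exact permutation p = 0.0286, n = 4 each). In the stacked plot of levels per kb most of the added height in DKO belongs to Ifitm3.

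**Figure D2:**
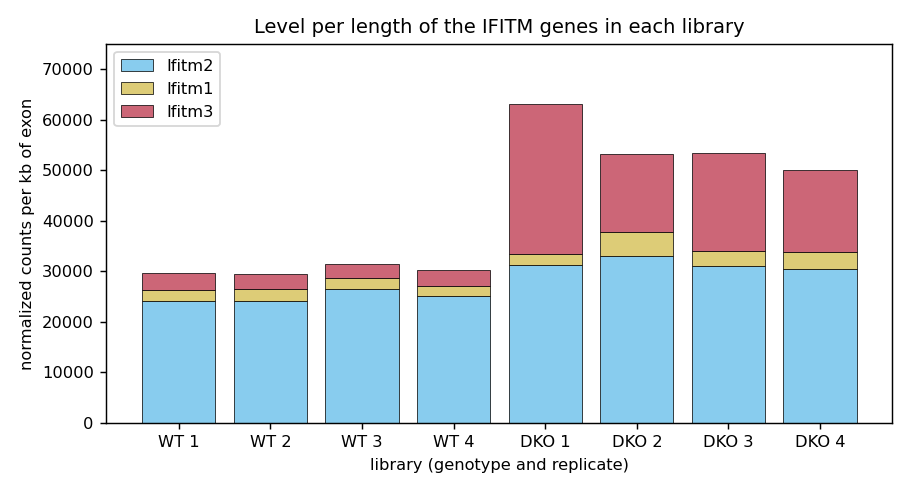
Normalized counts per kb of exon (linear axis from 0) of Ifitm2, Ifitm1 and Ifitm3, stacked, for each of the 8 libraries. The summed bars stand at 29453 to 31479 in WT and at 50070.0 to 63119 in DKO, and the Ifitm3 segment at 2809 to 3293 and 15500.2 to 29764.

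Ratios within a library compare 2 of the genes. Scaling between libraries enters them only through the pseudocount, which matters where counts are low, as for Ifi27l2a. The log2 ratio of Ifitm2 to Ifitm3 was 2.99 ± 0.15 in WT and 0.63 ± 0.45 in DKO, a difference of -2.35. For Ifitm1 to Ifitm3 the difference was -2.15 (0.22 ± 0.11 in WT and -1.93 ± 0.88 in DKO). The ratio of Ifitm1 to Ifitm2 differed by 0.21 (-2.77 ± 0.11 and -2.56 ± 0.44), with overlapping groups, and by 0.05 without DKO replicate 2 and 0.39 without DKO replicate 1. Over the 6 pairs compared here and below (exact two-sided permutation tests, n = 4 each, Benjamini-Hochberg over pairs), the adjusted p was 0.0429 for both pairs with Ifitm3 and 0.4 for Ifitm1 to Ifitm2. The change of Ifitm3 thus exceeded those of both neighbours in its cluster, and a difference between Ifitm1 and Ifitm2 was not detected with 4 libraries a group.

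Of the called genes Ifi27 varied least among DKO libraries, at a coefficient of variation of 15.9%. It was at 481, 353, 266 and 294 normalized counts in WT replicates 1 to 4. In DKO replicates 1 to 4 it was at 4879.5, 6486, 5261 and 6800.0. The lowest DKO library was 10.2 times the highest WT library. The ratio of the means (348 ± 95.4 and 5857 ± 930, SD, n = 4 each) was 16.8. The edgeR fit gave a log2 fold change of 4.07 ± 0.21 (SE) and an adjusted p of 2.78e-05. DKO replicate 1, the highest library for Ifitm3 and Bst2, was the lowest of the 4 DKO libraries for Ifi27.

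Ifi27l2a, the neighbour of Ifi27 on the opposite strand, was close to undetected in WT. Its raw counts were 11, 6, 7 and 0 in WT and 1337, 98, 142 and 132 in DKO, which scale to 11.5, 5.16, 6.08 and 0 normalized counts and to 1405, 114, 173 and 138. The groups did not overlap, with the lowest DKO library at 9.89 times the highest WT library, and DKO replicate 1 alone held most of the DKO counts. The means were 5.69 ± 4.72 and 458 ± 632 (SD, n = 4 each), and by edgeR the log2 fold change was 6.33 ± 1.16 (SE) and the adjusted p 0.00723. Without DKO replicate 1 it was 4.63, and the ratio of means went from 80.4 to 24.9. With Y-linked transcripts as a covariate, which leaves DKO replicate 3 alone against WT, the log2 fold change was 4.93. The log2 ratio of Ifi27 to Ifi27l2a was 6.14 ± 1.41 in WT and 4.54 ± 1.87 in DKO, with overlapping groups (exact permutation, adjusted p = 0.377 over the 6 pairs, n = 4 each).

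Bst2, the gene of tetherin, was at 2399, 1932, 2231 and 1948 normalized counts in WT. In DKO it was at 14552, 7186, 8210.5 and 6509.5. All DKO libraries were above all WT libraries, the lowest by 2.71 times the highest WT library, and replicate 1 was again the highest. The means were 2127 ± 227 and 9115 ± 3692 (SD, n = 4 each), a ratio of 4.28, or 3.43 without DKO replicate 1. By edgeR the log2 fold change was 2.10 ± 0.24 (SE) and the adjusted p 0.00143. Bst2 and Ifitm3 had nearly equal counts, not corrected for length, in each WT library, with a log2 ratio of 0.04 ± 0.15. In DKO the ratio was -0.62 ± 0.13, a difference of -0.66 (exact permutation, adjusted p = 0.0429 over the 6 pairs, n = 4 each). The log2 ratio of Ifi27 to Ifitm3 differed the other way, by 1.41 (-2.60 ± 0.30 in WT and -1.19 ± 0.65 in DKO), with the same adjusted p of 0.0429 by exact permutation.

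In mice tetherin also marks plasmacytoid dendritic cells. The sort included antibodies against CD45R/B220 and Ly6G/Ly6C, surface proteins of these cells, among the lineage markers used to remove cells. Of 8 markers of the cells, 5 were tested, 1 was called higher (Cox6a2, log2 fold change 2.40) and 2 lower (Siglech and Runx2, the latter at -1.71). Siglech was at 18.4 to 37.7 normalized counts in WT and at 0 in every DKO library. Of the markers with too few counts to be tested, Ly6d was at 0 to 5.21 normalized counts in WT and 4.88 to 106 in DKO, Spib at 0 to 12.9 and 0 to 33.7, and Klk1 at 0 throughout. The summed level of the list was 3432 to 3560 in WT and 2819 to 3732 in DKO, of which Tcf4, a regulator also transcribed in other cells, made up 2639 to 2776 and 2362 to 3425. The part of these cells in the level of Bst2 was not tested.

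The order of the DKO libraries was not the same for all genes. Replicate 1 was the highest for Ifitm3, Ifi27l2a and Bst2, at 9.78, 247 and 6.84 times the WT mean, and the lowest for Ifitm1 and Ifi27, at 0.989 and 14.0 times. Replicate 2 was the highest for Ifitm1 and Ifitm2, at 2.14 and 1.32 times. The summed mesenchyme markers were at 11.5 times their WT mean in replicate 1 and at 3.14, 3.59 and 5.22 times in replicates 2 to 4. Among WT libraries these markers were highest in replicate 3, at 1.43 times the WT mean, where Ifitm1 was at 0.979, Ifitm2 at 1.06, Ifitm3 at 0.923, Ifi27 at 0.763, Ifi27l2a at 1.07 and Bst2 at 1.05 times the WT mean. Without DKO replicate 1 the log2 fold changes were 2.49 for Ifitm3 and 1.78 for Bst2. The DKO libraries left in that fit also held more of these markers than WT, at 3.14 to 5.22 times. The part of mesenchymal RNA in the results was not tested.

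**Figure D3:**
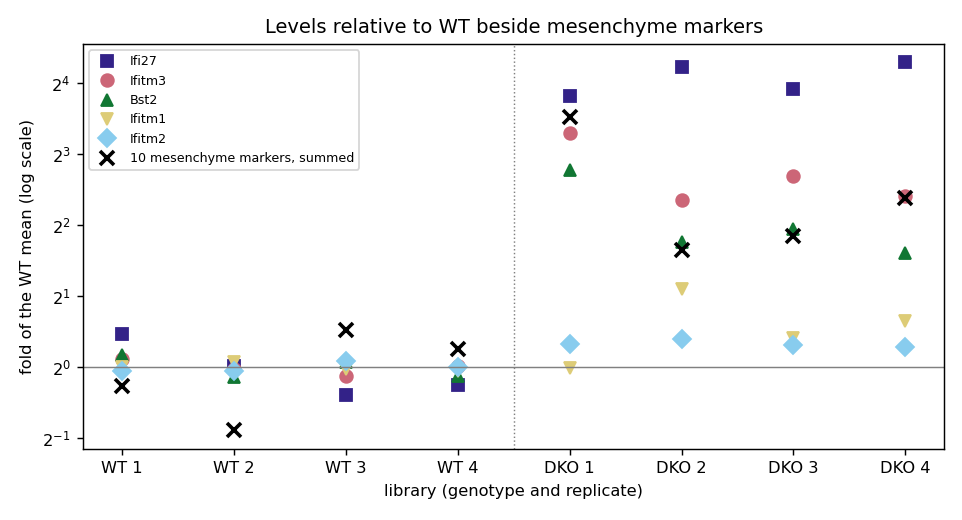
Level of 5 genes and of 10 summed mesenchyme markers in each library, as fold of the WT mean (log scale). In DKO replicate 1 the markers, Ifitm3 and Bst2 are at their highest (11.5, 9.78 and 6.84) and Ifi27 at its lowest DKO value (14.0).

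DKO replicate 3 was the only DKO library with Y-linked transcripts, as in all WT libraries. In it the 6 genes were at 1.33 (Ifitm1), 1.24 (Ifitm2), 6.43 (Ifitm3), 15.1 (Ifi27), 30.5 (Ifi27l2a) and 3.86 (Bst2) times the WT mean. Each of these values lay between the lowest and the highest of the other DKO libraries. With Y-linked transcripts as a covariate, the genotype effect rests on this library alone against the WT libraries, so no call is read from that fit. Its log2 fold changes were 0.42 (Ifitm1), 0.31 (Ifitm2), 2.68 (Ifitm3), 3.92 (Ifi27), 4.93 (Ifi27l2a) and 1.95 (Bst2).

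Of the other genes of the 2 families none was called. Ifitm6 was at 71.1 ± 16.2 normalized counts in WT and 31.2 ± 24.8 in DKO (log2 fold change -1.18, edgeR adjusted p = 0.18), and Ifitm5, a gene of bone, was at 16.7 ± 8.31 and 24.7 ± 8.01 (0.56, adjusted p = 0.508). Ifitm7, Ifitm10 and Ifi27l2b had too few counts to be tested. Ifi27l2b, a relative of Ifi27l2a, had no more than 7 counts in any library, so that a difference was not detectable at this depth.

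Genes around the 6 were read beside the shares of all genes called, 6.19% higher and 2.43% lower. Within 250 kb of the IFITM genes 25 other genes were tested, of which 1 was called higher (B4galnt4, a glycosyltransferase, log2 fold change 1.95, edgeR adjusted p = 0.0242) and 0 lower, with a median of -0.21. Below the fold threshold Hras, a small GTPase gene, was higher (0.75, edgeR adjusted p = 0.0128), and Rnh1, a ribonuclease inhibitor gene (-0.30, adjusted p = 0.0323), and Sigirr, a receptor gene (-0.48, adjusted p = 0.0484), were lower. Within 250 kb of Ifi27 and Ifi27l2a 7 were tested and 0 were called. There the edgeR adjusted p was under 0.05 for 1 gene, Ddx24, an RNA helicase, at a log2 fold change of 0.24, and the median was 0.52. Around Bst2 24 were tested, 0 were called higher and 2 lower, the endocytic adaptor Fcho1 (-1.38) and the kinase Jak3 (-1.03), with a median of 0.15. Mvb12a, 5.47 kb from Bst2 (0.36, edgeR adjusted p = 0.0276), and Use1 (0.35, adjusted p = 0.0185) were higher below the fold threshold.

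**Figure D4:**
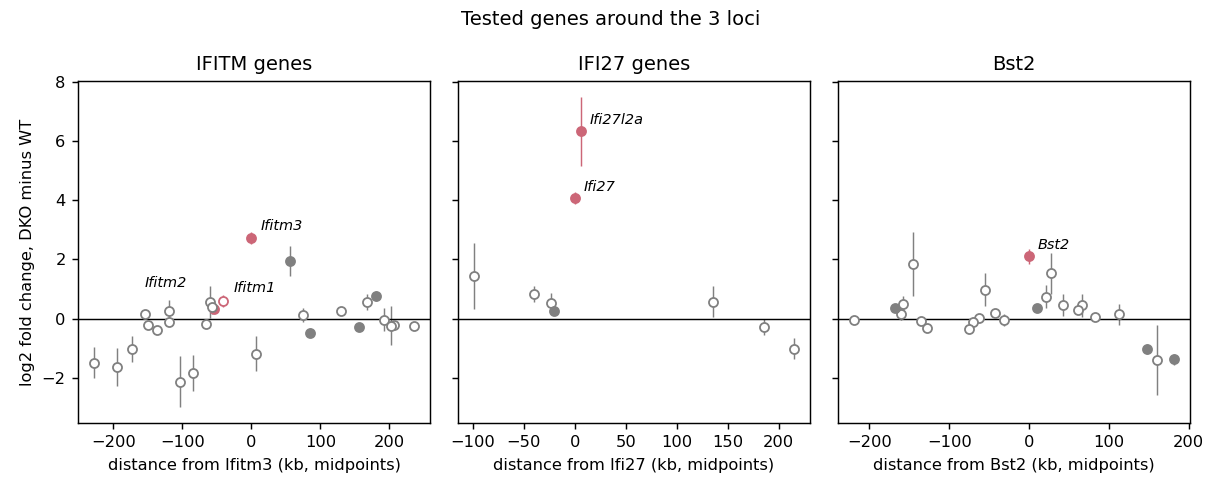
Log2 fold change (DKO minus WT, bars are standard errors) of genes tested within 250 kb of the IFITM genes, the IFI27 genes and Bst2, by distance from Ifitm3, Ifi27 or Bst2 in kb. Red marks the 6 genes and filled points an edgeR adjusted p under 0.05. Ifitm3 (2.73), Ifi27 (4.07), Ifi27l2a (6.33) and Bst2 (2.10) stand above all other filled points of their panels.

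The remaining steps of the interferon pathway were read from lists of known genes. Of 21 genes for interferons themselves, from the alpha, beta, gamma and lambda classes among others, 0 could be tested, 16 were at 0 in every library and the largest count in any library was 17 (Ifnk). Ifnb1 (at most 14 counts), Ifna1 (4) and Ifna2 (2) had counts in a single DKO library each and in no WT library. Ifnk and Ifnz had counts in both groups. Of 11 receptor and JAK-STAT genes 10 were tested and 0 were called. Below the fold threshold 1 passed the test upward, Irf9, the DNA-binding partner of STAT2 at the response element (log2 fold change 0.97, edgeR adjusted p = 0.0052). Stat2 itself was at -0.14 (edgeR adjusted p = 0.508). Another 6 passed downward, namely the receptor chains Ifnar1 (-0.57), Ifnar2 (-0.52), Ifngr1 (-0.61) and Ifngr2 (-0.58) and the kinases Jak1 (-0.65) and Tyk2 (-0.61). The median of this list was -0.54.

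Of 10 regulatory factors and feedback genes 5 were called higher and 2 lower, with a median log2 fold change of 0.71. Those higher were Isg15, a ubiquitin-like modifier (5.24), Irf7, the amplifier of type I interferon transcription (3.34), Usp18, which removes ISG15 and dampens the receptor (2.38), and the signalling inhibitors Socs3 (1.55) and Socs1 (1.42). Irf8 (-1.79) and Irf5 (-1.01), which act in myeloid cells, were lower. The summed level of the list was 13866 to 15309 normalized counts in DKO replicates 2 to 4 and 20269 in replicate 1.

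Interferon-inducible membrane proteins outside these families did not all move with the 6 genes. Of 9 listed 7 were tested, 1 was called higher and 0 lower, with a median log2 fold change of -0.45. The gene called was Rsad2, which encodes viperin on the endoplasmic reticulum and lipid droplets (from 62.2 ± 15.4 to 762 ± 125 normalized counts, SD, n = 4 each, log2 fold change 3.61, edgeR adjusted p = 0.000105). Ly6e, a GPI-anchored antiviral protein of the cell surface, was lower below the fold threshold (-0.47, adjusted p = 0.00733). Plscr1 (-0.36, adjusted p = 0.058), Cd274 (-0.45, adjusted p = 0.312) and Ly6a (-0.32, adjusted p = 0.743) did not pass the edgeR test. Ch25h and Ly6c2 had too few counts to be tested. Ch25h was at 0 in every WT library and at 2.09 to 22.1 normalized counts in DKO, and Ly6c2 was at 0 to 21.9 and 0 to 23.2.

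**Figure D5:**
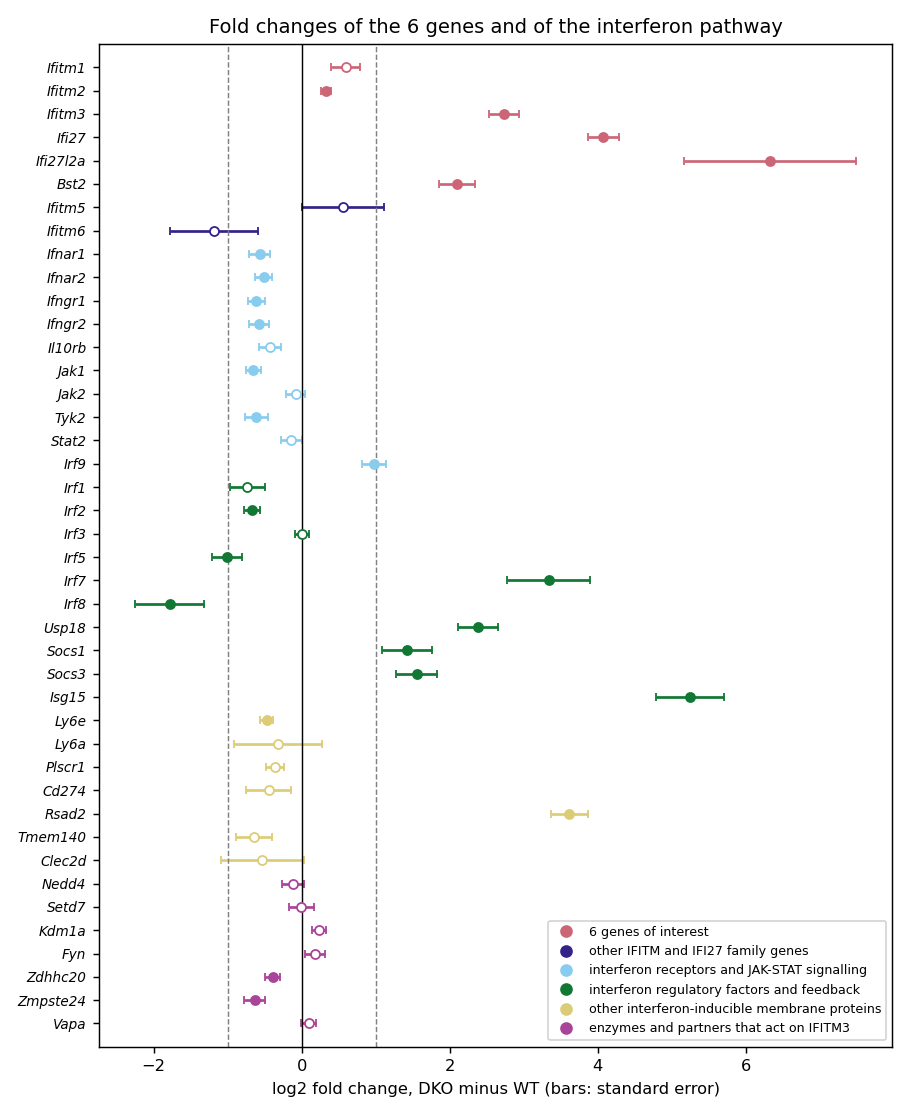
Log2 fold change (DKO minus WT) with standard error for the 6 genes and for the tested genes of 5 lists, colored by list. Filled points had an edgeR adjusted p under 0.05 and dashed lines mark -1 and 1. The receptor chains and kinases that passed lie between -0.65 and -0.52, while Isg15 (5.24), Irf7 (3.34) and Rsad2 (3.61) lie between Ifitm3 and Ifi27l2a.

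Genes for enzymes and partners known to act on the IFITM3 protein were counted next. Of 7 genes 0 were called and the median log2 fold change was -0.005. Zdhhc20, a palmitoyltransferase reported to act on IFITM3 (-0.39, edgeR adjusted p = 0.0251), and Zmpste24, a protease that binds it (-0.64, adjusted p = 0.014), were lower below the fold threshold. Nedd4, the ubiquitin ligase that marks it for degradation, was at -0.12 (edgeR adjusted p = 0.61).

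Endosome and lysosome membrane genes were read because IFITM2 and IFITM3 reside there. Of 11 genes 0 were called, with a median log2 fold change of 0.05. Cd63, a tetraspanin of late endosomes, was higher below the fold threshold (0.65, edgeR adjusted p = 0.00821) and the small GTPase gene Rab7 was lower (-0.36, adjusted p = 0.0496). Lamp1 (-0.10 ± 0.14, standard error) and Lamp2 (-0.19 ± 0.10) did not pass the test.

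The genes most like each of the 6 across the 8 libraries were found by the root mean square difference of log2 profiles, each gene centred on its WT mean, among 13991 genes. For Ifitm3 they were Gm20628 (0.20), Tagln (0.23) and Usp18 (0.30), and for Bst2 they were Hist1h3i (0.21), Rnf213 (0.24) and Parp12 (0.27). For Ifi27 they were Hist1h3f (0.33), Hist2h4 (0.40) and Rsad2 (0.47), where counts of near-identical histone genes are uncertain. For Ifitm2 the distances were smaller, 0.037 for Fam98b, 0.045 for Mnat1 and 0.046 for Tmem126a, as its own profile varied little. Ifitm1 was nearest to Wsb2 (0.16), Rps6-ps3 (0.16) and Echdc2 (0.17). Ifi27l2a had no close profile, the nearest being Elovl4 (1.04), Khdrbs2 (1.06) and Nell2 (1.08). Among the 6 genes the closest pairs were Ifitm1 with Ifitm2 (0.31) and Ifitm3 with Bst2 (0.48), and the IFI27 neighbours were 1.82 apart.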

How the data were processed

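RNAseq of S0 cells was analysed for 4 WT and 4 DKO libraries, grouped and numbered by their sample titles. Per the labels and the study's methods, the authors built the libraries by template switching from low RNA input, trimmed paired reads with fastp 0.21.0, mapped them to mm10 with HISAT2 2.2.1, dropped poorly mapped alignments and made counts with StringTie 1.3.3b and prepDE. The deposited values are raw whole-number counts per gene, neither normalized nor pooled. The strand setting is not given in the sources used here, so that counts of overlapping genes are uncertain. prepDE derives counts from coverage, so that totals can differ from read numbers.

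Of 52636 gene identifiers, 52403 matched a symbol in GENCODE for GRCm38 (the build of mm10). Genes were filtered with filterByExpr, scaled by TMM and compared with the robust quasi-likelihood test of edgeR 4.0.16 (limma 3.58.1, R 4.3.3) over 17378 genes with Benjamini-Hochberg adjustment. Normalized counts are counts scaled to a common library size. Single values were compared with exact two-sided permutation tests over 70 arrangements, whose smallest p is 0.0286, and log2 ratios and profiles used a pseudocount of 1. Levels per kb were divided by the union of annotated exons. Profiles were compared among genes with at least 50 normalized counts in DKO on average, and the 3 nearest were named. The genes named were the 6 genes, members of the lists that passed a threshold with up to 4 examples a list, these nearest profiles, the targeted genes and Xist and Ddx3y. Beyond this rule the neighbouring genes and the readthrough gene were named after their values were seen. The 6 genes and the gene lists were chosen with earlier results of these data known. One gene of the receptor and JAK-STAT list is not reported here and was left out of its counts and median. Libraries of a group differed by far more than counting error (chi-square per gene at least 18.9), and none was a copy of another. At these depths counting error was small beside the spread between libraries, except for genes with few counts such as Ifi27l2a in WT. On simulated counts of 16541 genes, 193 of 200 changed genes were recovered for the comparison of DKO with WT. The alternatives were DESeq2 1.42.0, other scalings and filters, protein-coding genes without histones, a replicate block, Y-linked transcripts as a covariate, no fold threshold, another pseudocount and each library left out in turn.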

Additional observations from a re-analysis of the deposited data

Results flagged for a closer look

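One value stood far from its group. Ifi27l2a in DKO replicate 1 was at 1405 normalized counts, against 114, 173 and 138 in the other 3 DKO libraries, and its gap to the nearest of them was 0.954 of the range of the group, above Dixon's critical value for 4 samples. Of 24 groups of 4 values examined in this way (the 6 genes and the 6 ratios between pairs of them, in WT and DKO), 1 was beyond the critical value, and chance alone puts about 1 in 20 there. Without this library the log2 fold change of Ifi27l2a was 4.63 in place of 6.33 and the gene was still called. The same library had the highest mesenchyme markers, whose part in the value was not tested.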

How the results depend on the processing

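Ifitm3, Ifi27 and Bst2 stayed called under every alternative that compared more than 1 library in each group. The Y-linked covariate leaves DKO replicate 3 alone against WT and is given as log2 fold changes only. Leaving out each library in turn gave log2 fold changes of 2.49 to 2.84 for Ifitm3, 3.96 to 4.26 for Ifi27, 1.78 to 2.23 for Bst2, 4.63 to 6.88 for Ifi27l2a, 0.30 to 0.36 for Ifitm2 and 0.37 to 0.76 for Ifitm1, with 4 of the 6 genes called each time. Ifitm1 passed the adjusted p threshold with DESeq2 (0.59), library size without TMM (0.58), upper-quartile scaling (0.70), at least 10 counts in every library (0.61) and protein-coding genes other than histones (0.63), and without DKO replicate 1 (0.76), and never reached the fold threshold. With the Y-linked covariate the log2 fold change was 0.31 for Ifitm2 and 4.93 for Ifi27l2a. DESeq2 gave Ifi27l2a no p-value and the filter of at least 10 counts removed it, so that 3 of 5 tested genes were called there. Upper-quartile scaling moved the median log2 fold change of all genes from 0.03 to 0.14, and Ifitm2 is to be read against that shift. The ratios between pairs kept their direction under all 9 alternatives each, and with a pseudocount of 5 their side of the threshold, while without single libraries they were given as values with no test. The difference for Ifitm1 to Ifitm2 was 0.05 without DKO replicate 2 and 0.39 without DKO replicate 1, against 0.21. The difference for Ifi27 to Ifi27l2a went from -1.60 to -0.63 with that pseudocount and to -0.69 without DKO replicate 1. Genes called higher over the whole table numbered 1653 with DESeq2, 273 with the Y-linked covariate, 1867 with no fold threshold and 566 to 1148 when a library was left out, against 1076. Genes called lower numbered 1878 with no fold threshold and 243 to 521 when a library was left out, against 423. Without single libraries the counts moved by over 1.5 times for WT replicates 1 (566 higher and 258 lower), 2 (650 and 260) and 4 (633 and 243), and the cause was not tested.

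Replicate numbers did not pair the libraries, with correlations of -0.09, 0.04, -0.02 and -0.01 between deviations of libraries with the same number. A replicate block gave 613 genes higher and changed no call among the 6 genes. The spread of Ifitm1 between DKO libraries (a coefficient of variation of 32.2%) limits its comparison, and low counts limit that of Ifi27l2a in WT.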
